A study of Homo sapiens with 24 samples.

Results

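The MYC, MAX and MXD network is a family of transcription factors whose members bind DNA as pairs. Its 9 members examined here were MYC, MAX, MXD1, MXD3, MXD4, MXI1, MNT, MLX and MLXIP. They were found among 24655 gene names of the array as those probes to which the scanner files give one of these names, 19 of 34127 probes, between 1 and 3 for each gene. MXD3 was chosen by its measured log2 changes, which differed between 6 h and 24 h in H1975 on 1 of its probes, so its values in H1975 are given as a description without a test. Transcripts had been measured in the human lung adenocarcinoma lines A549 and H1975, both established cell lines. Cells received Pirfenidone, an anti-fibrotic drug, at 0.75 mg/ml, or the same amount of its solvent PBS, and were taken after 6 h or 24 h. This made 8 groups of 3 samples, with a one-color Agilent array for each of the 24 samples. The labels do not say whether the 3 samples of a group came from separate cultures, so the p-values measure the spread between these samples.

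MYC is an activator that drives growth, ribosome production and cell division, and it binds DNA only when paired with MAX. MXD1, MXD3, MXD4, MXI1 and MNT compete with MYC for MAX, and their pairs with MAX occupy the same E-box sequences but recruit the SIN3 corepressor and silence the target genes. MLX resembles MAX and pairs with MLXIP, also called MondoA, which senses glucose metabolites and activates TXNIP and ARRDC4. MXD1 and MXI1 are known from cells that leave the cell cycle, whereas MXD3 is known from dividing cells in S phase, and MNT is present in most cells. The arrays measure transcripts, and MYC is also regulated strongly through the turnover of its protein.

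Several members are read by probes that lie in different places of the gene or on different transcripts, and these probes did not always move together. The final 30 bases of the probes on which the results turn are given below, 5′ to 3′ on the transcript strand, as read from the scanner files. The capitals mark the polyadenylation signal ATTAAA, which a search found in 1 of the 17 probe ends examined. MXD3 probe 1 lies at chr5:176734216-176734275 on the minus strand of hg19 and is annotated to transcript variant 1. MXD3 probe 2 lies at chr5:176732666-176732725 on the same strand and is annotated to variant 2. MXI1 probes 1 and 2 lie at chr10:112045945-112046001 and chr10:112044747-112044806 on the plus strand and are annotated to variant 2, and MXI1 probe 3 lies at chr10:111985981-111986040 and is annotated to variant 1. MNT probe 1 lies at chr17:2287576-2287635 on the minus strand and probe 2 at chr17:2289632-2289691. The files do not say whether a probe lies in coding sequence or in a UTR.
MXD3 probe 1: ctgtacagtattttcATTAAAagcctcttt
MXD3 probe 2: gctctcgaaaacctctcttctgactcttaa
MXI1 probe 1: gtaaagatttgcttccattttcctacaggc
MXI1 probe 2: atattcactgggccaattcaatacaaacaa
MXI1 probe 3: gctgccgagtttttggagcgccgggagcga
MNT probe 1: aactgtagcgaccccagactgtagagattt
MNT probe 2: agatcataggaagtggctggtctggagtcc

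Values are the log2 of a probe's signal minus the log2 of the 75th percentile of its array, so a value of 0 equals that percentile, and the level of one probe is not set against that of another. Probe 1 of a gene is its brightest. Signals were well above background on all 24 arrays for 17 of the 19 probes, on 12 for MXD3 probe 2 and on 8 for the second MYC probe. That MYC probe, which reads a transcript from the upstream promoter P0, passed on no A549 array and on no complete group of H1975, and it was not tested. The other 18 were tested with limma in 1 fit across all 23827 probes that were well above background in at least 1 group. A probe was called at a Benjamini-Hochberg adjusted p of at most 0.05 and a difference of at least 2-fold.

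The names of the deposited files carry a date, and the 4 dates are numbered here as runs 1 to 4. The labels do not say what the date marks. Each run held at most 1 sample of a group, and values of a group are listed below in the order of the runs. The share of probes well above background ran from 62.7% to 69.5% over the arrays, without saturation. The epithelial markers EPCAM, KRT7, KRT8, KRT18 and CDH1 were above background on all arrays. A probe of CDKN2A, a gene deleted in A549, was above background on 0 of 12 A549 arrays and on 12 of 12 H1975 arrays, while the other CDKN2A probe was above it on all arrays. Of the markers of other cell types, both DCN probes were above background on no array, COL1A2 on 0 of 12 A549 and 12 of 12 H1975 arrays, and CD68 and CDH5 on all. PECAM1, an endothelial marker, was above background on 0 of 12 A549 and 12 of 12 H1975 arrays on 2 of its 3 probes, and PTPRC, a leukocyte marker, on 12 A549 and 11 H1975 arrays on 1 of its 5 probes, with at most 1 H1975 array on the others. The A549 samples of run 1 at 24 h stood apart. The means of 54 G2/M genes were 1.98 and 1.99 on the PBS arrays of runs 2 and 3 but 0.88 on that of run 1, and they were 1.77 and 1.34 on the Pirfenidone arrays of runs 2 and 3 but 2.07 on that of run 1. This pair thus ran opposite to the other runs. The cause, an exchange of the pair's labels included, was not tested. Without the pair, the 7 member probes called between the lines in PBS remained called, and the differences of the 16 probes tested there moved by between -0.13 and 0.22. For Pirfenidone in A549 at 24 h they moved by between -0.53 and 0.76, and 0 of 16 passed the adjusted p with or without it.

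In PBS, the lines differed in 7 of the 16 probes tested without MXD3, and all 7 were higher in H1975, a direction in which 18% of all probes were called. These were the probe of MYC, MAX probes 2 and 3, MXD1 probe 2 and all 3 probes of MXI1. Across all probes tested 33.3% were called in this comparison, so calls were common on the array. A further 6 member probes passed the adjusted p without reaching 2-fold, which made 13 of 16 against 70.1% of all probes. They were 4 higher in H1975 with MAX probe 1, MLXIP probe 1, MNT probe 1 and MXD1 probe 1, and 2 lower with MLX and MLXIP probe 2. The probes of MXD4 and MNT probe 2 did not pass. No array slide held both lines, and arrays of the same slide were correlated (0.45), which this fit does not allow for. With slide as a block, 7 of the 16 were called and 12 passed the adjusted p.

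**Figure D1:**
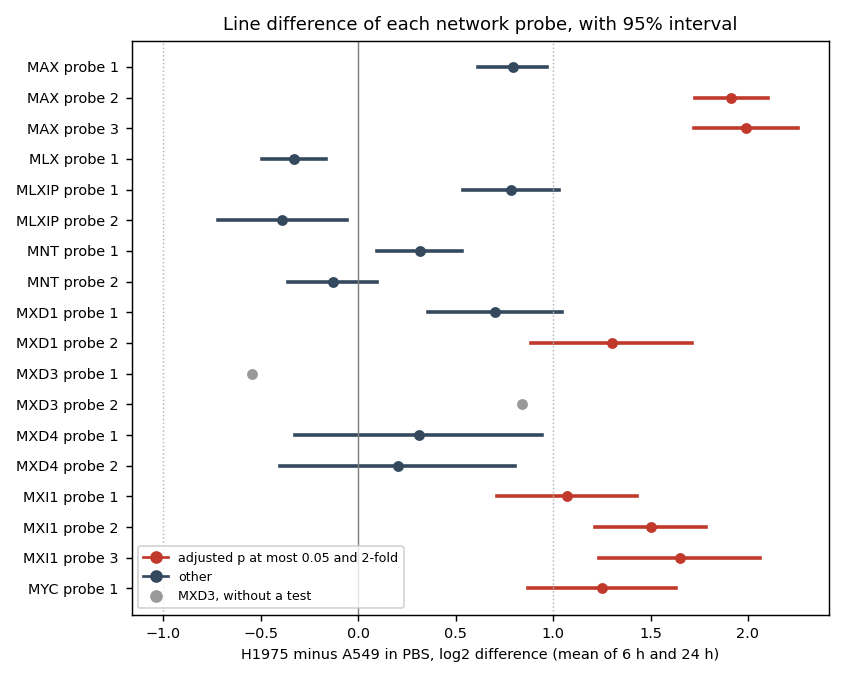
Difference between H1975 and A549 in PBS, mean of 6 h and 24 h, for 18 network probes, as a log2 difference with its 95% interval, which is left out for MXD3 (gray). Red marks the 7 probes that were called, and the dotted lines mark 2-fold. MAX probes 2 and 3 lie at 1.91 and 1.99, the largest values shown, and MXD3 probe 1 lies at -0.54.

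MYC read 3.03, 3.17 and 3.43 in A549 after 6 h in PBS and 2.55, 3.16 and 3.37 after 24 h. In H1975 it read 4.33, 4.62 and 4.53 after 6 h in PBS and 3.59, 4.66 and 4.47 after 24 h. The arrays of the lines did not overlap, although the H1975 array of run 1 at 24 h lay close to the highest A549 array. The difference was 1.25 ± 0.18 on the log2 scale (SE, adjusted p = 5.09e-06), and 1.13 without the A549 pair of run 1 at 24 h. Within runs 1 and 3, which held both lines, MYC was higher in H1975 by 1.30 and 1.20 at 6 h, and by 1.04 and 1.29 at 24 h. On the second MYC probe, the means of both lines in PBS lay near or under the lowest signal that counted as well above background, and no fold is given.

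MAX, the shared partner, differed more on its minor probes than on its brightest. MAX probe 1, on transcript variant 3, was higher in H1975 by 0.79 ± 0.09 (SE, adjusted p = 9.11e-08). MAX probe 2, on variant 6, was higher by 1.91 ± 0.09 (SE, adjusted p = 3.58e-13), and MAX probe 3, on variant 4, by 1.99 ± 0.13 (SE, adjusted p = 4.73e-11). On probe 2 the A549 arrays in PBS read between -2.56 and -2.28 and the H1975 arrays between -0.66 and -0.21. The intervals of probes 2 and 3 lay above that of probe 1, so the differences between the lines were unequal along the gene.

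MXI1, a MAX partner of the repressing branch, was higher in H1975 on each probe. The differences were 1.07 ± 0.17 on probe 1, 1.50 ± 0.14 on probe 2 and 1.65 ± 0.20 on probe 3 (SE, adjusted p = 1.69e-05, 7.88e-09 and 3.92e-07). Probe 1 came to 0.99 without the H1975 PBS array of replicate 2 at 6 h, and also fell just short of 2-fold without that of replicate 1 at 24 h. MXD1 was higher by 0.70 ± 0.16 on probe 1 (SE, adjusted p = 0.000882) and by 1.30 ± 0.20 on probe 2 (SE, adjusted p = 8.55e-06), whose bases span a splice junction. With normexp background correction, MXD1 probe 2 came to 0.84, MXI1 probe 1 to 0.95 and MXI1 probe 3 to 0.69, and none of them reached 2-fold.

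MLXIP probes disagreed, with probe 1 higher in H1975 by 0.78 ± 0.12 and probe 2 lower by 0.39 on the log2 scale (-0.39 ± 0.16; SE, adjusted p = 7.48e-06 and 0.034). MLX, its partner, was lower in H1975, with a difference of -0.33 ± 0.08 (SE, adjusted p = 0.00102). MXD3 is described here without a test. Its probe 1 read lower in H1975, by -0.54, and by -0.62 without the A549 pair of run 1 at 24 h. Within runs, the MXD3 difference was -0.96 and -0.80 at 6 h but 0.19 and -0.20 at 24 h. MXD3 probe 2, the weaker probe, was well above background on all 6 H1975 arrays in PBS and on no A549 array in PBS. The mean of H1975 was -6.41 and that of A549 -7.25, and the fold was at least 1.31 against the lowest signal counted as above background. The fitted difference of this probe was 0.84, but -0.02 with normexp background correction, so its direction depended on the background method.

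No change of MYC with Pirfenidone passed the test at either time. In A549 it read 2.81, 3.05 and 3.36 under Pirfenidone at 6 h, and 2.69, 3.13 and 3.10 at 24 h. In H1975 it read 3.97, 4.35 and 4.29 under Pirfenidone at 6 h, and 4.17, 4.72 and 4.71 at 24 h. In each comparison these overlapped the PBS arrays. The differences from PBS were -0.13 and -0.06 in A549 and -0.29 and 0.29 in H1975 at 6 h and 24 h, with a standard error of 0.26 each and adjusted p of 1, 1, 0.813 and 0.567. Without the pair of run 1, MYC differed by -0.15 in A549 at 24 h. The 95% interval was -0.83 to 0.25 in H1975 at 6 h and -0.24 to 0.83 at 24 h, which leaves room for changes below 2-fold in both directions. Ordered by mean, the MYC levels of the 4 H1975 groups lay above those of the 4 A549 groups, and within a line the ranges of neighboring groups overlapped.

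**Figure D2:**
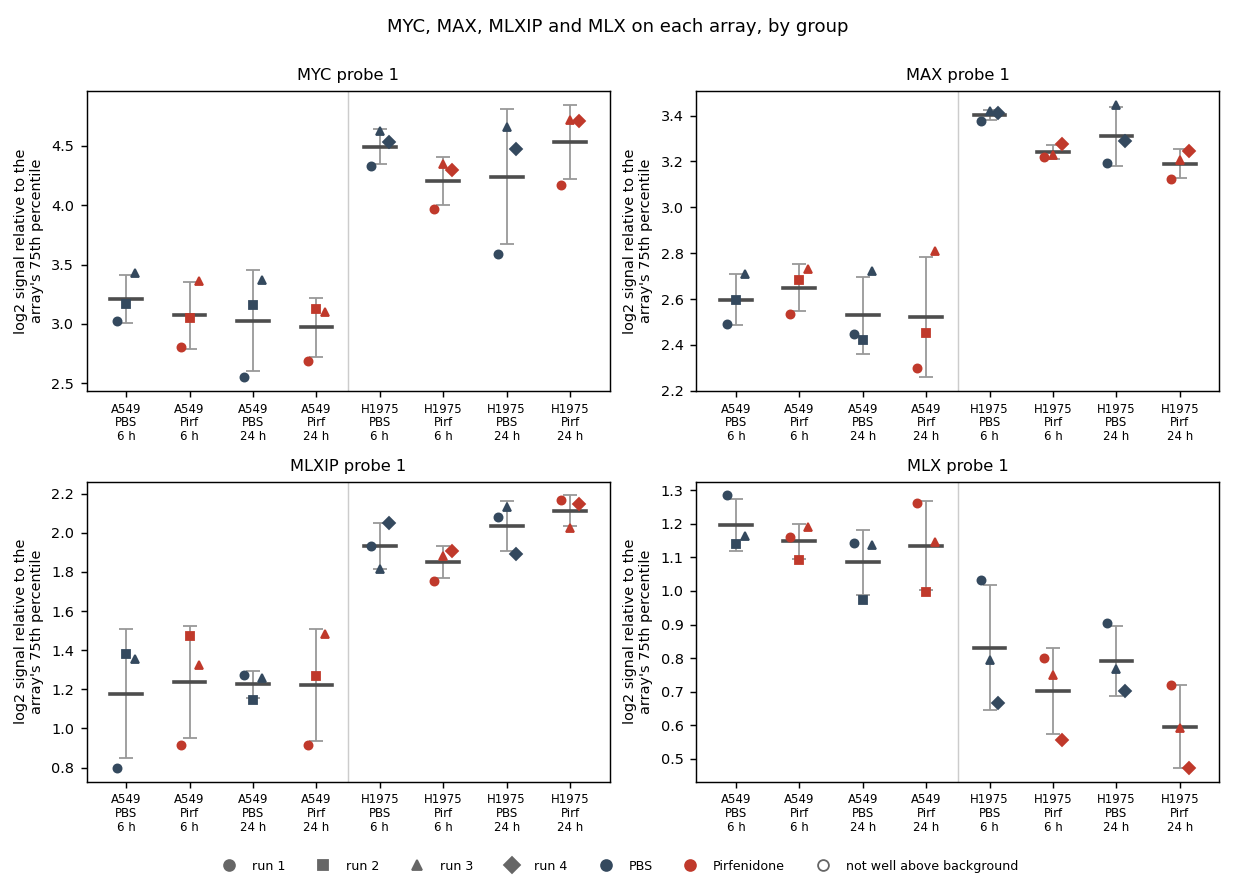
Log2 signal relative to the array's 75th percentile of MYC, MAX, MLXIP and MLX on probe 1, for each of the 24 arrays. Points are arrays with the symbol giving the run, horizontal bars are group means and whiskers are SD, with 3 arrays in each group. For MYC, MAX and MLXIP the H1975 arrays lie above the A549 arrays, and for MLX most lie below with some overlap, with the treatments mixed within a line.

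No MAX probe passed the test with Pirfenidone. Probe 1 read 3.38, 3.42 and 3.41 in H1975 after 6 h in PBS and 3.22, 3.23 and 3.28 after 6 h of Pirfenidone. These groups did not overlap, but the difference of -0.16 ± 0.12 (SE, adjusted p = 0.748) was small. On the 3 probes of MAX, differences with Pirfenidone ran from -0.16 to 0.15 over the 4 comparisons, and no adjusted p was below 0.634.

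MNT, MXD1, MXI1 and MXD4, which are MAX partners of the repressing branch, read higher under Pirfenidone than under PBS in most pairs of the same run, but none was called at 2-fold. In 18 probes tested, 0 were called in A549 at 6 h or at 24 h, against 0.176% and 0.0126% of all probes. In H1975, without MXD3, 0 of 16 were called at 6 h and at 24 h, against 0.491% and 1.89% of all probes. The groups did not overlap for 5 of 18 and 0 of 18 probes in A549 at 6 h and 24 h, against 15.3% and 1.82% of all probes, and for 5 of 16 at each time in H1975, against 17.8% and 31.9%. By limma, 5 of 18, 0 of 18, 6 of 16 and 5 of 16 had an unadjusted p under 0.05, against 6.01%, 0.953%, 11% and 22% of all probes. The methods' t-test, paired by run, also called 0 in each comparison at 2-fold, with and without adjustment. On the adjusted p alone, 1 probe of MNT passed in H1975 at 6 h (1.41% of all probes) and 2 probes of MXI1 in H1975 at 24 h (6.26% of all probes).

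**Figure D3:**
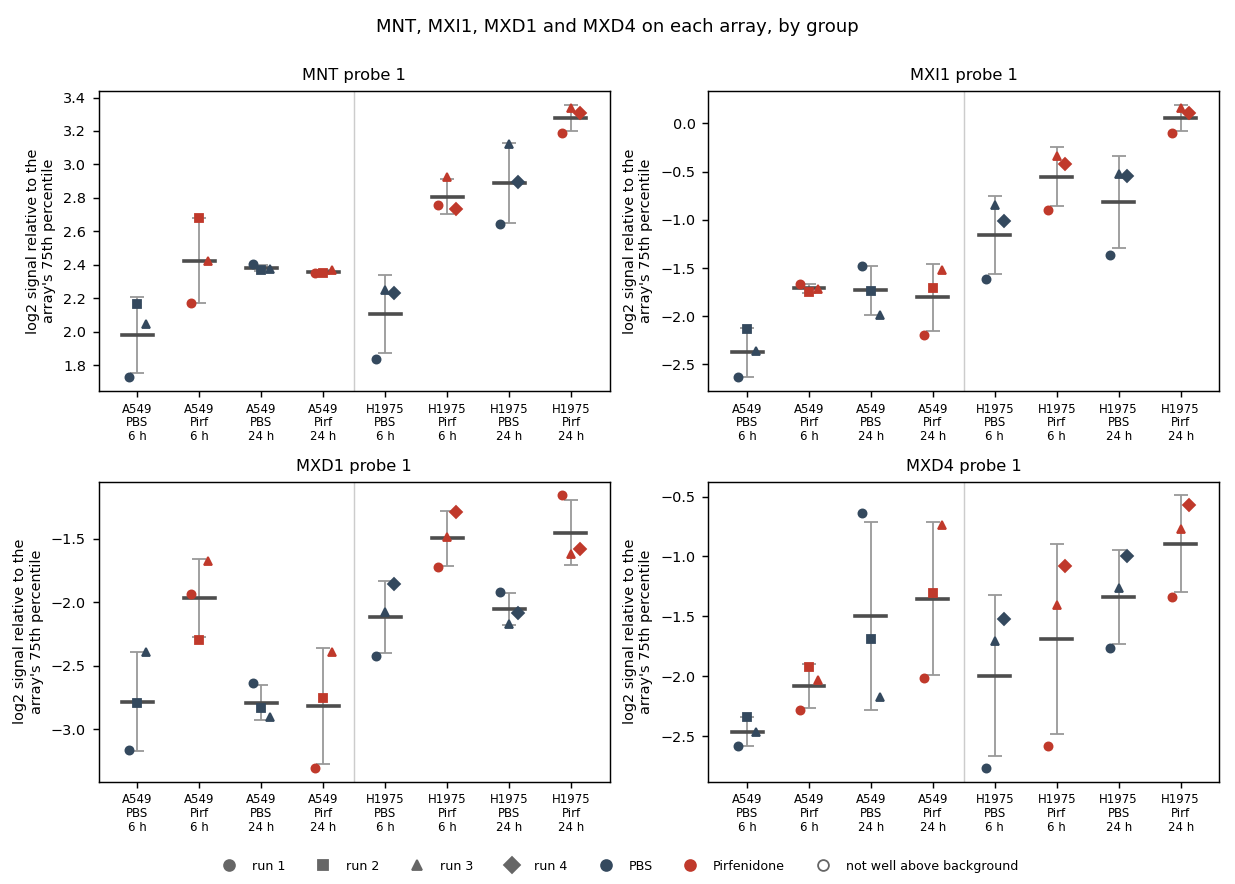
Log2 signal relative to the array's 75th percentile of MNT, MXI1, MXD1 and MXD4 on probe 1, for each of the 24 arrays. Points are arrays with the symbol giving the run, horizontal bars are group means and whiskers are SD, with 3 arrays in each group. The H1975 arrays with Pirfenidone at 24 h lie highest for MNT, between 3.19 and 3.34, and for MXI1, between -0.10 and 0.16.

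MNT, the partner present in most cells, had the smallest adjusted p with Pirfenidone among the members tested. Its probe 1 read 1.83, 2.25 and 2.23 in H1975 after 6 h in PBS and 2.76, 2.93 and 2.73 after 6 h of Pirfenidone. All treated arrays lay above all PBS arrays, with a difference of 0.70 ± 0.15 (SE, adjusted p = 0.0218). At 24 h the PBS arrays read 2.64, 3.12 and 2.90 and the Pirfenidone arrays 3.19, 3.34 and 3.31, again without overlap, but the difference of 0.39 ± 0.15 (SE) did not pass (adjusted p = 0.124). In A549 at 6 h, MNT probe 1 read 1.73, 2.17 and 2.04 in PBS and 2.17, 2.68 and 2.42 under Pirfenidone, with a difference of 0.45 ± 0.15 (SE, adjusted p = 0.414). In A549 at 24 h both groups lay between 2.35 and 2.40 and did not separate.

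MNT probe 1 also changed with time in PBS. In H1975 it was higher at 24 h than at 6 h by 0.78 ± 0.15 (SE, adjusted p = 0.0168), in a comparison that shares the 6 h PBS arrays with the drug comparison at 6 h. In this PBS comparison 0 of 16 member probes were called at 2-fold, against 0.315% of all probes, and 1 passed on the adjusted p, against 0.663%, with 3 at an unadjusted p under 0.05, against 10.6%. In A549 in PBS, 0 of 18 were called against 0.109%, and 5 had an unadjusted p under 0.05, against 8.49%. Ordered by mean, MNT was highest in H1975 with Pirfenidone at 24 h, without overlap with the next group, H1975 in PBS at 24 h, whose range overlapped that of H1975 with Pirfenidone at 6 h. It was lowest in A549 and H1975 in PBS at 6 h, which overlapped each other. MNT probe 2, about 2 kb away in the gene, differed less, by 0.42 ± 0.15 in H1975 at 6 h (SE, adjusted p = 0.255) and by -0.07 ± 0.15 at 24 h (SE, adjusted p = 0.869).

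MXI1 passed the adjusted p in H1975 at 24 h. Probe 1 read -1.36, -0.53 and -0.54 in PBS and -0.10, 0.16 and 0.11 under Pirfenidone, and probe 2 read -1.16, -0.91 and -0.82 in PBS and -0.22, -0.31 and -0.22 under Pirfenidone. The treated arrays lay above the PBS arrays on both. The differences were 0.87 ± 0.24 and 0.71 ± 0.19 (SE, adjusted p = 0.0402 and 0.0334). Probe 3, on the other transcript variant, differed by 0.63 ± 0.28 (SE, adjusted p = 0.189). At 6 h the differences in H1975 were 0.60, 0.62 and 0.31 on probes 1 to 3, with adjusted p of 0.324, 0.144 and 0.818. In A549 at 6 h they were 0.67, 0.47 and 0.02, with adjusted p of 0.519, 0.644 and 1.

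MXD1, known from differentiating cells, differed by a similar amount at both times in H1975. Its probe 1 read -2.42, -2.07 and -1.86 in PBS and -1.72, -1.48 and -1.29 under Pirfenidone at 6 h, and -1.92, -2.17 and -2.08 in PBS and -1.16, -1.62 and -1.58 under Pirfenidone at 24 h. Neither comparison overlapped, and the differences were 0.62 ± 0.23 and 0.60 ± 0.23 (SE, adjusted p = 0.272 and 0.129). In A549 at 6 h, probe 1 read -3.17, -2.79 and -2.39 in PBS and -1.93, -2.29 and -1.68 under Pirfenidone, without overlap. The difference there was 0.81 ± 0.23 on probe 1 and 0.90 ± 0.28 on probe 2 (SE, adjusted p = 0.227 and 0.322).

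MXD4 varied widely between runs. In H1975 in PBS at 6 h its probe 1 read -2.77, -1.71 and -1.52, and under Pirfenidone -2.59, -1.40 and -1.08, so the runs differed more than the treatments. Pirfenidone minus PBS was 0.38 for A549 at 6 h (adjusted p = 1), 0.31 for H1975 at 6 h (adjusted p = 0.912) and 0.45 for H1975 at 24 h (adjusted p = 0.612). In A549 at 24 h, probe 1 read -0.64, -1.69 and -2.17 in PBS and -2.02, -1.31 and -0.73 under Pirfenidone. The difference over the 3 runs was 0.15, and 0.91 without the pair of run 1 (adjusted p = 0.609, or 0.0378 with run as a block).

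Taken run by run, probe 1 of each of the 4 partners was higher under Pirfenidone in all 9 pairs outside A549 at 24 h, as were 9.9% of all probes. These partners and pairs were grouped with the values known, so this is a description and not a test. MXD3 probe 1, also of the repressing branch, was higher in 6 of the 9. In the 3 pairs of A549 at 24 h, MNT probe 1 was higher in 0. The second probes of MXD1 and MXI1 were also higher in all 9, whereas probe 3 of MXI1 was higher in 8 and the second probes of MNT and MXD4 in 7 each. Over all 12 pairs, on probe 1, MXD1, MXI1 and MXD4 were higher in 11 and MNT in 9. For comparison, 6.75% of all probes were higher in at least 11 pairs and 24.6% in at least 9. The pair that ran the other way for MXD1, MXI1 and MXD4 was in each case the A549 pair of run 1 at 24 h, with differences of -0.67, -0.72 and -1.38. The medians over the 12 pairs were 0.56 for MXD1, 0.62 for MXI1, 0.42 for MXD4 and 0.43 for MNT, against -0.09 for MYC and -0.06 for MAX.

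**Figure D4:**
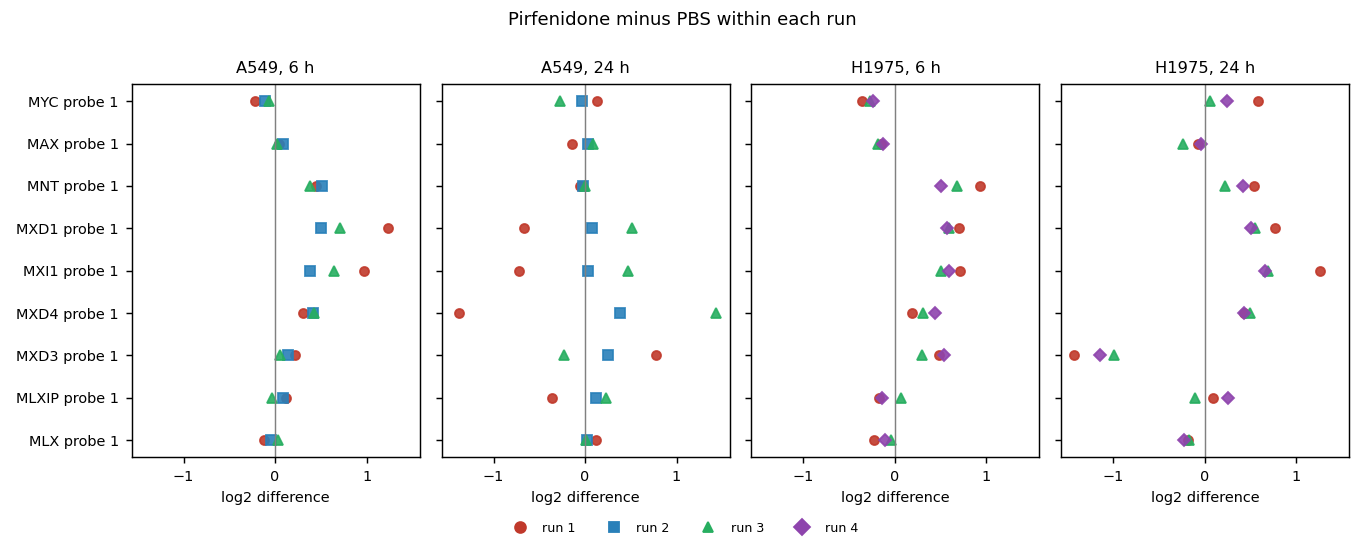
Difference between Pirfenidone and PBS within each run, on a log2 scale, for probe 1 of each member, with a panel for each line and time and a symbol and color for each run. MNT, MXD1, MXI1 and MXD4 lie to the right of 0 in all 9 pairs outside A549 at 24 h, MYC stays within -0.36 and 0.58 in all 12 pairs, and MXD3 lies to the left of 0 in H1975 at 24 h.

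With run as a block, which takes out the spread between runs for all probes, more of these differences passed the adjusted p. The share of all probes that passed in these fits was not counted, so the counts are not set against the array. In H1975 at 6 h, 2 of 16 passed, with MNT probe 1 and MXI1 probe 2 (adjusted p = 0.00183 and 0.0222). In H1975 at 24 h, 5 passed, with the 3 probes of MXI1, MNT probe 1 and, lower under Pirfenidone, MLX at -0.20 (adjusted p = 0.00488, 0.00602, 0.00687, 0.0215 and 0.0371). None of these reached 2-fold, and in A549 none passed at 6 h or 24 h.

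MXD3, the partner known from S phase, had been chosen for its contrast between times in H1975, and the following values describe it without a test. Probe 1 read 1.22, 1.23 and 0.87 in H1975 after 6 h in PBS and 1.69, 1.53 and 1.41 after 6 h of Pirfenidone. After 24 h it read 1.62, 1.69 and 1.64 in PBS and 0.20, 0.70 and 0.50 under Pirfenidone. Thus the treated arrays lay above the PBS arrays at 6 h, by a mean of 0.44, and below them at 24 h, by a mean of 1.19 on the log2 scale (-1.19). The change between the times was -1.62, and each of the 3 runs showed both directions. The PBS level itself was higher at 24 h than at 6 h, by 0.55.

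**Figure D5:**
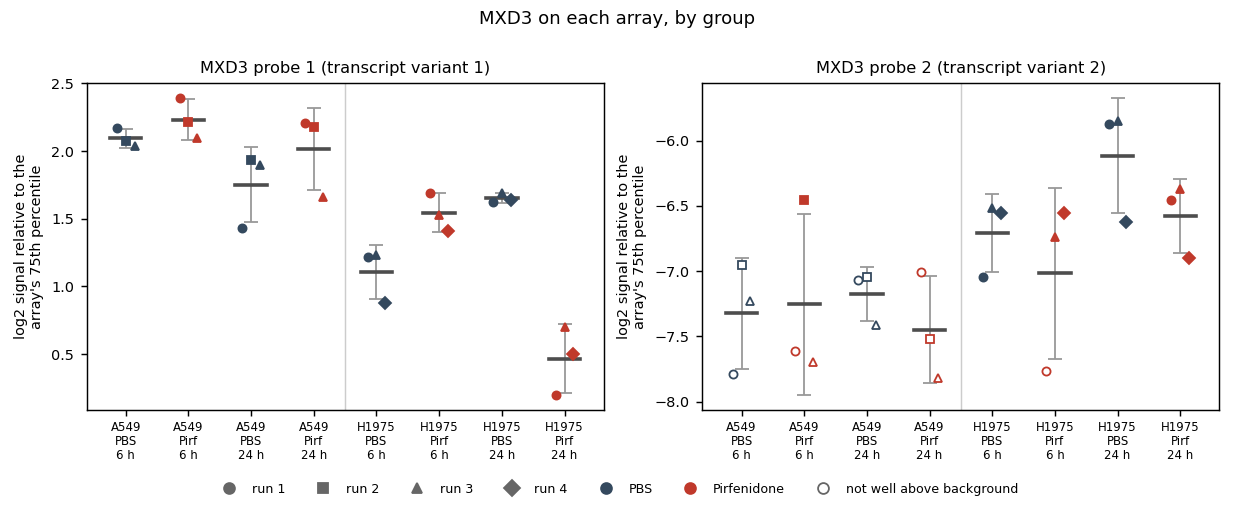
Log2 signal relative to the array's 75th percentile of the 2 MXD3 probes on each of the 24 arrays. Points are arrays with the symbol giving the run, open symbols were not well above background, horizontal bars are group means and whiskers are SD, with 3 arrays in each group. On probe 1 the H1975 arrays with Pirfenidone at 24 h lie between 0.20 and 0.70, below all other arrays, and on probe 2 the groups overlap in H1975.

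MXD3 probe 2, on transcript variant 2, lay close to background, and its contrast depended on the background method. It read -5.88, -5.85 and -6.62 in H1975 after 24 h in PBS and -6.45, -6.37 and -6.90 under Pirfenidone, and these groups overlapped. The differences were -0.31 at 6 h and -0.46 at 24 h, and the change between the times was -0.15. With normexp background correction the difference was 1.04 at 6 h and -0.20 at 24 h, and the change between the times was -1.24.

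In A549, which did not enter the choice, MXD3 probe 1 read 2.17, 2.07 and 2.04 in PBS and 2.39, 2.21 and 2.09 under Pirfenidone at 6 h. At 24 h it read 1.43, 1.93 and 1.89 in PBS and 2.21, 2.18 and 1.66 under Pirfenidone. The differences were 0.14 ± 0.17 and 0.26 ± 0.17 (SE, adjusted p = 1 for both), and 0.01 at 24 h without the pair of run 1. Pirfenidone minus PBS at 24 h was therefore lower in H1975 than in A549 by a difference of -1.45, or -1.19 without that pair. Ordered by mean, MXD3 was highest in A549 with Pirfenidone at 6 h, and neighboring groups overlapped down to H1975 with Pirfenidone at 6 h. H1975 in PBS at 6 h and, below it, H1975 with Pirfenidone at 24 h each stood apart from the group above.

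Genes of the G2/M phases lay beside MXD3 in these values. In H1975 at 24 h, their means were between 1.98 and 2.09 in PBS and between 0.63 and 1.15 under Pirfenidone, and 33 of the 54 were called lower, against 1% of all probes, with a median of -1.11. At 6 h in H1975, where MXD3 probe 1 was higher with Pirfenidone, 0 of the 54 were called, against 0.491% of all probes. There 2 had an unadjusted p under 0.05, against 11% of all probes, and the median of the 54 was -0.14. On the A549 array in PBS of run 1 at 24 h, MXD3 probe 1 and the G2/M mean were both the lowest among the 12 A549 arrays. The part of the share of dividing cells in the MXD3 values was not tested, and in bulk samples fewer cells of a kind and less RNA per cell cannot be told apart.

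The probes most like MXD3 probe 1 and MYC were sought over all 24 arrays, after the mean of each line had been subtracted, among 18836 probes that were above background on all arrays. For MXD3, the highest Pearson correlations were with FOXRED1 (0.879), HIST1H2AI, a histone gene (0.877), SGOL1, which protects sister chromatid cohesion (0.875), SHMT1 of folate metabolism (0.869) and NCAPD2, a condensin subunit (0.865). For MYC they were with AKAP2 (0.903), DLC1 (0.868), RAI14 (0.859), TMEM171 (0.857) and lnc-KIAA0087-2 (0.855). The correlation between MYC and MXD3 was -0.189. These values describe 24 arrays that share treatments and runs, and they carry no test.

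No probe of MLXIP or MLX passed the test with Pirfenidone when run was not a block. The differences of MLXIP probe 1 were 0.06 and -0.00 in A549 and -0.08 and 0.08 in H1975 at 6 h and 24 h, each with a standard error of 0.17. Those of MLX were -0.05 and 0.05 in A549 and -0.13 and -0.20 in H1975, each with a standard error of 0.11. Without the pair of run 1, the A549 differences at 24 h were 0.18 for MLXIP probe 1 and 0.01 for MLX, and neither passed. Without the pair of run 1 and with run as a block, MLXIP probe 2 was lower under Pirfenidone in A549 at 24 h by -0.52 (adjusted p = 0.0375), against 0.01 over the 3 runs.

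TXNIP and ARRDC4, the known targets of MLXIP, marked the lines apart. TXNIP, which restrains glucose uptake, read 3.35, 3.78 and 3.73 in H1975 after 6 h in PBS, whereas in A549 in PBS it was above background on 0 of 3 arrays at 6 h and on 1 of 3 at 24 h. At 6 h its level in H1975 was at least 1440-fold higher than the lowest signal counted as above background in A549 (adjusted p = 9.28e-15 over both times). ARRDC4 was higher in H1975 by 3.87 ± 0.17 (SE, adjusted p = 1.32e-13), or 4.04 without the A549 pair of run 1 at 24 h, and KLF10, another target, was lower by -0.42 ± 0.11 (SE, adjusted p = 0.00201). In H1975 at 24 h TXNIP read 3.94, 3.94 and 4.17 in PBS and 4.90, 4.64 and 4.81 under Pirfenidone, without overlap. The difference was 0.77 ± 0.61 (SE, adjusted p = 0.523), with an adjusted p of 0.0519 when only the arrays compared entered the fit and 0.189 with run as a block. ARRDC4 differed by 0.66 ± 0.24 there (SE, adjusted p = 0.109), with an adjusted p of 0.115 when only the arrays compared entered and 0.0489 with run as a block. None of the 3 targets tested was called with Pirfenidone in either line, where adjusted p and 2-fold are both required. An unadjusted p under 0.05 was reached by 1 of them for A549 at 6 h, against 6.01% of all probes. For H1975 at 24 h it was also reached by 1, against 22% of all probes.

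The genes known to be activated by MYC, which serve ribosome assembly, nucleotide synthesis and growth, were split between the lines. Of 35 tested, 2 were called higher and 2 lower in H1975 in PBS, where 33.3% of all probes were called, with a median of -0.03 against 0.07 for all probes. Higher were PPAN (1.63) and PES1 (1.12), both of ribosome assembly, and lower were FBL, the rRNA methyltransferase fibrillarin (-1.37), and TERT, the catalytic subunit of telomerase (-1.06). With Pirfenidone, 0 of 35 were called in any of the 4 comparisons, with 4 and 0 at an unadjusted p under 0.05 in A549 at 6 h and 24 h (6.01% and 0.953% of all probes) and 7 and 20 in H1975 (11% and 22% of all probes). In H1975 at 24 h, 6 passed the adjusted p, against 6.26% of all probes, and all were lower, namely NOP16 (-0.55), NOP2 (-0.46), MYBBP1A (-0.60), EIF4E (-0.44), TCOF1 (-0.73) and C1QBP (-0.35). The median of the 35 there was -0.36 against 0.02 for all probes, and 2 of the 35 lay above 0. Elsewhere the median was -0.13 for A549 at 6 h, -0.12 for H1975 at 6 h and close to 0 for A549 at 24 h. That last value joins runs of opposite direction. In A549 at 24 h the mean of the 35 read 3.014 in PBS and 2.895 under Pirfenidone in run 2. It read 3.04 and 2.704 in run 3, but 2.58 and 3.012 in run 1.

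Of 7 genes known to be repressed by MYC, 1 was called with Pirfenidone in H1975 at 24 h, against 1.89% of all probes. This was NDRG1, higher by 1.44 ± 0.27 (SE, adjusted p = 0.00574). CDKN1A, which encodes the cell cycle inhibitor p21, differed by 0.95 ± 0.25 (SE, adjusted p = 0.0326) and did not reach 2-fold. The other 5 of the 7 did not pass in that comparison, in which 6.26% of all probes passed the adjusted p. Of the 7, 5 lay above 0 there, and the lowest was at -0.475. Between the lines in PBS, 3 of the 7 were called higher in H1975 and 1 lower, where 33.3% of all probes were called. CDKN1A was lower in H1975 by -2.15 ± 0.18 (SE, adjusted p = 2.58e-09), and THBS1 was higher by 1.86 ± 0.18 (SE, adjusted p = 2.24e-08). CDKN2B and PDGFRB were above background on no A549 array in PBS, and were at least 4.47-fold and 5.7-fold higher in H1975. On the array, a gene missing from a line, as CDKN2A is from A549, and a gene without transcripts cannot be told apart.

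Of 14 genes that control the turnover of MYC protein, 1 was called with Pirfenidone in H1975 at 24 h, against 1.89% of all probes. This was AURKA, a mitotic kinase that stabilizes MYC family proteins, lower by -1.38 ± 0.30 (SE, adjusted p = 0.0122). AURKA is also one of the G2/M genes, of which 33 of 54 were called lower in that comparison. PIM1, a kinase that acts together with MYC, passed the adjusted p in H1975 at 6 h with 0.75 ± 0.17 (SE, adjusted p = 0.0294). Of all probes 1.41% passed there. The other 12 passed in no drug comparison. Between the lines none of the 14 was called, against 33.3% of all probes. On the adjusted p alone, 7 were higher in H1975 and 3 lower, against 70.1% of all probes that passed. Of 18 cofactors, 0 were called with Pirfenidone, with 1 and 0 at an unadjusted p under 0.05 in A549 at 6 h and 24 h and 3 and 5 in H1975, against 6.01%, 0.953%, 11% and 22% of all probes. Of these, PAF1, of the elongation complex, passed the adjusted p in H1975 at 24 h (-0.55, adjusted p = 0.0141), as did 6.26% of all probes. Between the lines, 2 of the 18 cofactors were called higher in H1975 and 2 lower, against 33.3% of all probes called. SIN3B (1.02), a SIN3 corepressor, was among the higher, and PAF1 (-1.69) and EP400 (-1.13) were lower. SIN3A, also a SIN3 corepressor, went the other way (-0.69) and passed the adjusted p without reaching 2-fold. MYCL, a MYC paralog, was lower in H1975 by -1.29 ± 0.13 (SE, adjusted p = 3.74e-08) and differed with Pirfenidone in H1975 at 24 h by 0.63 ± 0.18 (SE, adjusted p = 0.0487).

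The E-box CACGTG, the sequence to which MAX pairs bind, was searched on both strands in the 250 bases before the start of each gene in RefSeq windows of GRCh38.p14. It was present in 3 of the 8 members other than MYC, namely MNT, MXD4 and MLX, and in ARRDC4. These 8 members had 11 windows, as a gene can have more than 1, and 6.34% of 35116 windows of all genes held it. MAX, MLXIP, MXD1, MXD3, MXI1 and TXNIP did not hold these letters in the windows given. MNT and MXD4 read higher under Pirfenidone in most pairs on probe 1, as did MXD1 and MXI1, which did not hold the E-box. MLX, which held it, was higher in 4 of 12 pairs. The windows of MNT and MXD4 are shown with the E-box in capitals, 193 and 238 bases before the start. They lie at chr17:2401061-2401310 and chr4:2262110-2262359, both on the minus strand.
MNT: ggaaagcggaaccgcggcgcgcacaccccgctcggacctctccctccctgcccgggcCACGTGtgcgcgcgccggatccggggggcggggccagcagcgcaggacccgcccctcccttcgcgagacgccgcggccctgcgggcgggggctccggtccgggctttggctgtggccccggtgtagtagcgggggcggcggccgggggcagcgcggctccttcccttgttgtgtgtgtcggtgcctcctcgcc
MXD4: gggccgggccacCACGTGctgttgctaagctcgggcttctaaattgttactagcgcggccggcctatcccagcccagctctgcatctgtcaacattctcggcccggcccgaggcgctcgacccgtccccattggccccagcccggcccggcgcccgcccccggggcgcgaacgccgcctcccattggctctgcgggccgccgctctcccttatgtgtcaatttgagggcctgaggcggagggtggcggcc
The match is a description of the letters and not a measured binding site.

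Whether the response to Pirfenidone differed between lines or times was tested for the members other than MXD3 in H1975. Between the lines, 0 of 16 were called at 6 h (0.0336% of all probes) and 0 of 16 at 24 h (0.193%), with 0 and 2 at an unadjusted p under 0.05, against 2.63% and 12.2%. The latter were MXI1 probes 1 and 2 at 24 h, higher in H1975 by 0.94 ± 0.34 and 0.90 ± 0.27 (SE, adjusted p = 0.25 and 0.174). With run as a block all 3 MXI1 probes passed the adjusted p there (0.043, 0.0323 and 0.0418), and without the A549 pair of run 1 only probe 3 passed in that fit, with 0.69 (adjusted p = 0.0331). The share of all probes that passed in these block fits was not counted. Between the times, 0 of 18 were called for A549 (0.0294% of all probes) and 0 of 16 in H1975 (0.0042%), with 5 and 1 at an unadjusted p under 0.05, against 3.04% and 5.86%.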

How the data were processed

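The authors deposited scanner files made with Agilent Feature Extraction (version 11.5.1.1), which hold each spot's background-subtracted intensity and its flags, and a second table with log2 values derived from them, centered on each probe. RNA had been labeled with a low-input one-color kit. For this report, log2 of the deposited intensity was taken minus each array's 75th percentile over 43118 non-control spots. Spots flagged as outliers were dropped before the remaining spots of a probe were averaged. A probe was above background where at least 0.5 of its spots were. Testing used limma 3.58.1 in R 4.3.3 (lmFit and eBayes) with 8 groups, 24 arrays and 16 residual degrees of freedom, and Benjamini-Hochberg adjustment over 23827 probes. The study's methods name a moderated test with a fold-change limit and a Westfall-Young correction, which cannot pass with 3 arrays against 3 and was not run. The steps were tried on simulated data with large changes and independent noise, which checks the code and not the power to find smaller changes.

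The members and gene lists were chosen with earlier results of these data known. The named genes are the 9 members on all probes and genes of 6 lists of network partners, MYC targets and regulators, with the G2/M genes and markers of cell types. The brightest tested probe stands for a gene. Promoter windows came from RefSeq. Alternatives were other backgrounds, scalings, filters, adjustments and blocks, and leaving out arrays. Leaving out the A549 pair of run 1 at 24 h together with run as a block was chosen after the data had been seen. The values of 1 cofactor are not reported here.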

Additional observations from a re-analysis of the deposited data

Results flagged for a closer look

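For 6 members the pairs of a run pointed one way in one setting and the other way in another. MXD3 probe 1 in H1975, chosen for this pattern, changed by -1.62 from 6 h to 24 h, with run differences of 0.30 to 0.54 at 6 h and -1.43 to -0.99 at 24 h, and it was not tested. MYC probe 1 in H1975 changed by 0.58 between the times (adjusted p = 0.965), with -0.36 to -0.23 at 6 h and 0.06 to 0.58 at 24 h. MNT probe 1 in A549 changed by -0.47 between the times (adjusted p = 1), with 0.38 to 0.51 at 6 h and -0.05 to -0.00 at 24 h.

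Between the lines, in H1975 minus A549, MAX probe 1 differed by -0.21 at 6 h (adjusted p = 1), and MLX probe 1 by -0.25 (adjusted p = 0.576), MNT probe 1 by 0.41 (adjusted p = 0.447) and MXI1 probe 3 by 0.75 (adjusted p = 0.47) at 24 h. With 3 pairs on each side and 18 probes examined in 4 contrasts, patterns of this kind also arise by chance.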

How the results depend on the processing

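Counts of member probes called at 2-fold leave out MXD3 in H1975 drug and time comparisons and in line differences of the drug. They were 0 in each drug, time and difference comparison under every alternative run except that without a fold-change limit. That alternative gave 1 for the drug at 6 h, 2 for the drug at 24 h and 1 between the PBS times, all in H1975. Between the lines in PBS the count was 7, and it came to 15 without a fold-change limit (13 without MXD3), to 4 with normexp background correction and to 4 of 9 genes when the probes of a gene were averaged. Leaving out 1 array gave 6 to 7 between the lines and 0 elsewhere. No value of a member reversed its call. Normexp moved the median of all probes in H1975 at 6 h from 0.05 to 0.29. MNT, MXI1 and MXD1 on probe 1 were then at 0.71, 0.69 and 0.73, above that shift. MXD4 was closer to the shift, at 0.42 on probe 1, and about equal to it on probe 2, at 0.29.

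The labels' replicate numbers did not pair samples in H1975 at 6 h, where same-numbered samples had correlations of -0.48, 0.43 and -0.68 of their deviations from the group means, against 0.82, 0.50 and 0.70 for samples of the same run. With the replicate number as a block the count of members called, with MXD3 left out as above, was 0 in the 10 comparisons to which the block could be fitted. With run as a block, 8 were counted between the lines, or 7 without MXD3, which is described without a test and whose probe 2 was at 1.02 there but at -0.02 with normexp. Weak probes near background, with MXD3 probe 2 and the second MYC probe, limit what can be said of those transcripts, and 3 arrays in a group limit the precision of all of them. The permutation adjustment of Westfall and Young was planned as an alternative and not run, and with 3 samples against 3 it could not reach 0.05 in the drug and time comparisons.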
